A study of Mus musculus with 6 samples.

Results

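Nuclear genes of the mitochondrial respiratory chain and the ATP synthase were followed in wild-type mouse intestinal organoids exposed to tyramine, an amine that gut bacteria make from tyrosine. Members were the rows of the deposited count table whose symbols name subunits of complexes I to V, cytochrome c1 or cytochrome c, leaving out the Ndufaf assembly factors and entries marked as pseudogenes. The rule used symbols and no measured value, although the members were chosen with earlier results of these data known. It gave 86 of the 24786 rows, with 38 in complex I, 4 in complex II, 9 in complex III, 1 for cytochrome c (Cycs), 18 in complex IV and 16 in complex V. Cox7a2l and Atp5s match by symbol, although Cox7a2l encodes a factor of respiratory supercomplexes and Atp5s a factor coupled to the ATP synthase. Intestinal organoids are self-organizing epithelial cultures. After dissociation into single cells for 10 min, wild-type cells received 100 µM tyramine for 16 h (3 libraries), and wild-type cells with the control treatment gave another 3 libraries. The sample labels call the control treatment DMSO, a solvent, while the series text speaks of control medium, and neither says whether the tyramine cultures also received DMSO. The labels do not give the gut segment, the animals or the number of organoid lines, and nothing says that the replicates were separate cultures, so a p-value here reflects no more than library-to-library spread, which may be technical.

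The respiratory chain passes electrons to oxygen through a row of protein complexes in the inner mitochondrial membrane. Complex I takes them from NADH and complex II, which is also the succinate dehydrogenase of the tricarboxylic acid cycle, takes them from succinate. Both hand them to coenzyme Q, from which complex III reduces cytochrome c and complex IV reduces oxygen. Complexes I, III and IV pump protons, and complex V uses the resulting gradient to make ATP. Complex II is encoded wholly in the nucleus, whereas the others also hold subunits encoded by mitochondrial DNA, which were not analysed here. Absorptive enterocytes of the gut are rich in mitochondria, and nutrient uptake across their brush border draws on ATP.

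Libraries held 28316372 to 35035955 counts, and 12139 genes had enough counts to be tested. Calls rest on edgeR's quasi-likelihood test over all these genes, with a Benjamini-Hochberg adjusted p below 0.05; 1609 were lower with tyramine (13.3%) and 1518 higher (12.5%), and the median log2 fold change was near 0. Libraries of the tyramine group differed more among themselves than control libraries did, with a chi-square per degree of freedom of 52.5 to 98.5 between pairs of tyramine libraries and 26.7 to 34.9 between pairs of control libraries. Tyramine replicate 3 stood apart from the other tyramine libraries, at 98.5 and 93.2 against replicates 1 and 2, which lay at 52.5 from each other. Of 7 epithelial markers, 3 fell and 2 rose, and their summed level lay at 14358 to 15866 CPM (the usual unit of counts scaled to library size) in tyramine libraries and 15860 to 17312 CPM in control libraries. All 12 enterocyte markers fell (summed level 3377 to 3505 CPM against 17780 to 19058 CPM), with Lct at 0 in 2 of 3 tyramine libraries. Of 12 proliferation markers, 11 fell (222 to 308 CPM against 2765 to 3277 CPM), with Birc5 and Ccnb1 at 0 in tyramine replicate 1. No fibroblast or immune marker passed the threshold (0 of 4 and 0 of 2 tested, also at an unadjusted p under 0.05 in edgeR's test), and the summed fibroblast level was 8.83 to 8.87 CPM with tyramine and 8.77 to 9.31 CPM in controls. The summed immune level was 6.85 to 11.2 CPM with tyramine and 5.96 to 9.56 CPM in controls, with Cd3e at 0 in 5 of 6 libraries. No endothelial marker had enough counts to be tested (0.209 to 2.61 CPM summed, against 0.386 to 1.25 CPM). Of 4 tested striated muscle markers, Acta1 fell and Tnnt2 rose (summed level 141 to 186 CPM against 283 to 363 CPM), with Mb at 0 in all 6 libraries, and none of 4 tested smooth muscle markers passed (1 of them higher at an unadjusted p under 0.05 in edgeR's test; 17.4 to 23.6 CPM against 12.6 to 13.0 CPM). In bulk RNA, fewer cells of a type and less RNA per cell cannot be told apart, and the part of the enterocyte and proliferation markers in the results below was not tested.

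Promoter sequences are given for members on which the results turn, because the motifs of nuclear respiratory factor 1 (NRF1) and of the ETS factor GABPA are classical elements of nuclear respiratory gene promoters. RefSeq promoters on GRCm38.p6, running from 250 bases before to 50 bases after the start site, were found for 68 of the 86 members. Each sequence below is read 5′ to 3′ in the direction of its gene, and capitals mark the motif match on either strand. Sdha, Sdhd, Uqcr11 and Atp5c1 fell with tyramine, whereas Cox6a1 and Ndufa11 did not pass the threshold. Ndufa11 still lay lower in every tyramine library than in every control library (log2 fold change −0.74), and passed with DESeq2 and limma-voom. The windows are, for Sdha, chr13:74350319-74350348 on the minus strand, for Sdhd, chr9:50603909-50603938 on the minus strand, for Atp5c1, chr2:10080433-10080462 on the minus strand, for Cox6a1, chr5:115349101-115349130 on the minus strand and, for Ndufa11, chr17:56717692-56717721 on the plus strand, all with an NRF1 match. The Uqcr11 window, chr10:80406845-80406924 on the minus strand, holds an ETS match. All windows lie before a RefSeq start site, but those of Sdha, Sdhd, Atp5c1 and Cox6a1 overlap exons annotated in GENCODE M21. Atp5c1 has 2 RefSeq promoters.
Sdha: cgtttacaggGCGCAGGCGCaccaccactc
Sdhd: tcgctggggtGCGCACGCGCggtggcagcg
Atp5c1: cgcctgagctcccGCGCACGCGCactgagt
Cox6a1: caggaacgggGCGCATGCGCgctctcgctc
Ndufa11: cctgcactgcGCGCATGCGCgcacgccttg
Uqcr11: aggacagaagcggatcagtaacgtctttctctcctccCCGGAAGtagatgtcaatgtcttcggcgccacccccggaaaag

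Of the 86 members, 79 had enough counts to be tested. With tyramine, 34 of them fell and 0 rose, beside 13.3% of all tested genes lower and 12.5% higher. At an unadjusted p under 0.05, edgeR's test put 41 members lower and 0 higher, and DESeq2 and limma-voom also called 0 higher. The fold change was below 0 for 75 of the 79 and above 0 for Ndufa1, Atp5g2, Ndufb2 and Ndufb4, none of which passed the threshold; Ndufb2 and Ndufb4 lay below 0 when libraries were scaled by their totals alone (−0.029 and −0.032). The median log2 fold change was −0.57, which is a level of 67.3% of control, with a range of −1.62 to 0.45. In 41 members every tyramine library lay below every control library, against 23.6% of all tested genes, and in 0 members every tyramine library lay above, against 20.9%. Members took 0.817 to 0.991% of all counts in tyramine libraries and 1.46 to 1.56% in control libraries. Of the 34 calls, 20 held under each of 15 alternative analyses, and the number of members called lower was 21 without control replicate 3, the smallest number among the 6 analyses that left out 1 library. Exons of 24 members overlap those of another gene in GENCODE M21, among them the called Ndufa13, Ndufb5, Uqcrc2 and Atp5f1 on the other strand, and 6 members, Cycs, Uqcrh and Atp5c1 included, have a pseudogene of the same name; their counts are uncertain, since the strand setting and the treatment of shared reads are not stated.

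**Figure D1:**
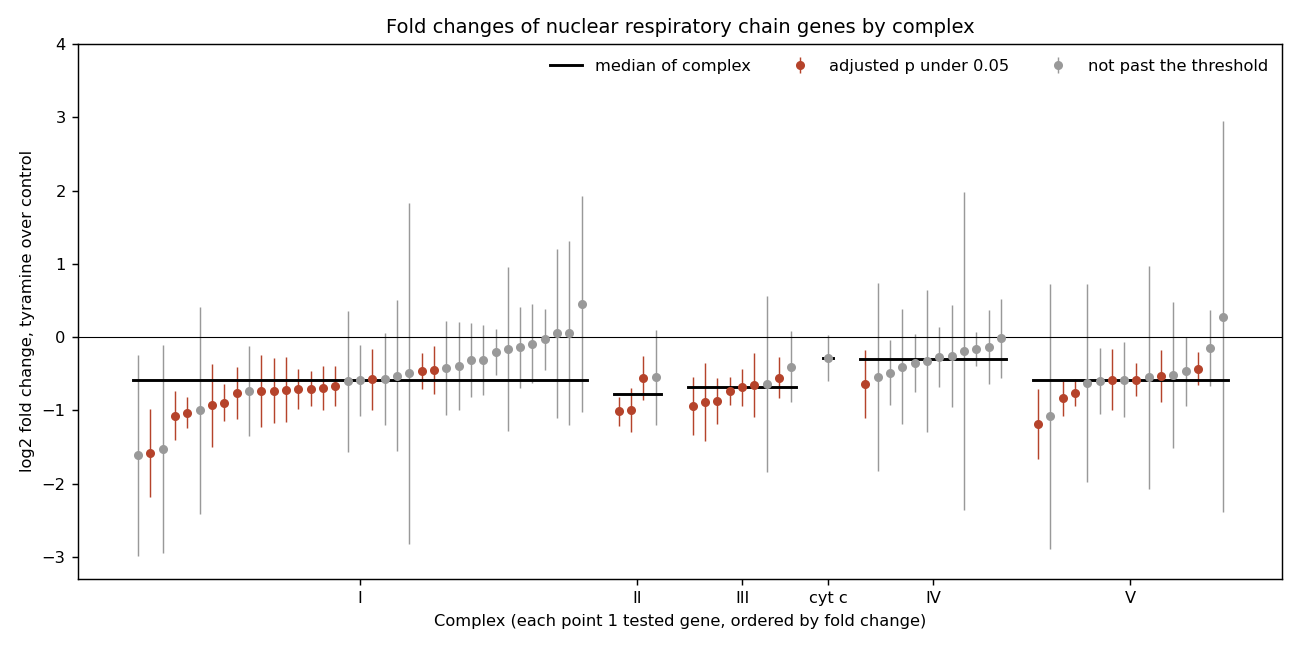
Log2 fold change, tyramine over control, of each of the 79 tested genes by complex, with 95% intervals as bars (n = 3 libraries per group) and black lines at the median of each complex. Red points passed an adjusted p under 0.05; all 34 lie below 0, and medians run from −0.28 for cytochrome c to −0.78 for complex II.

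**Figure D2:**
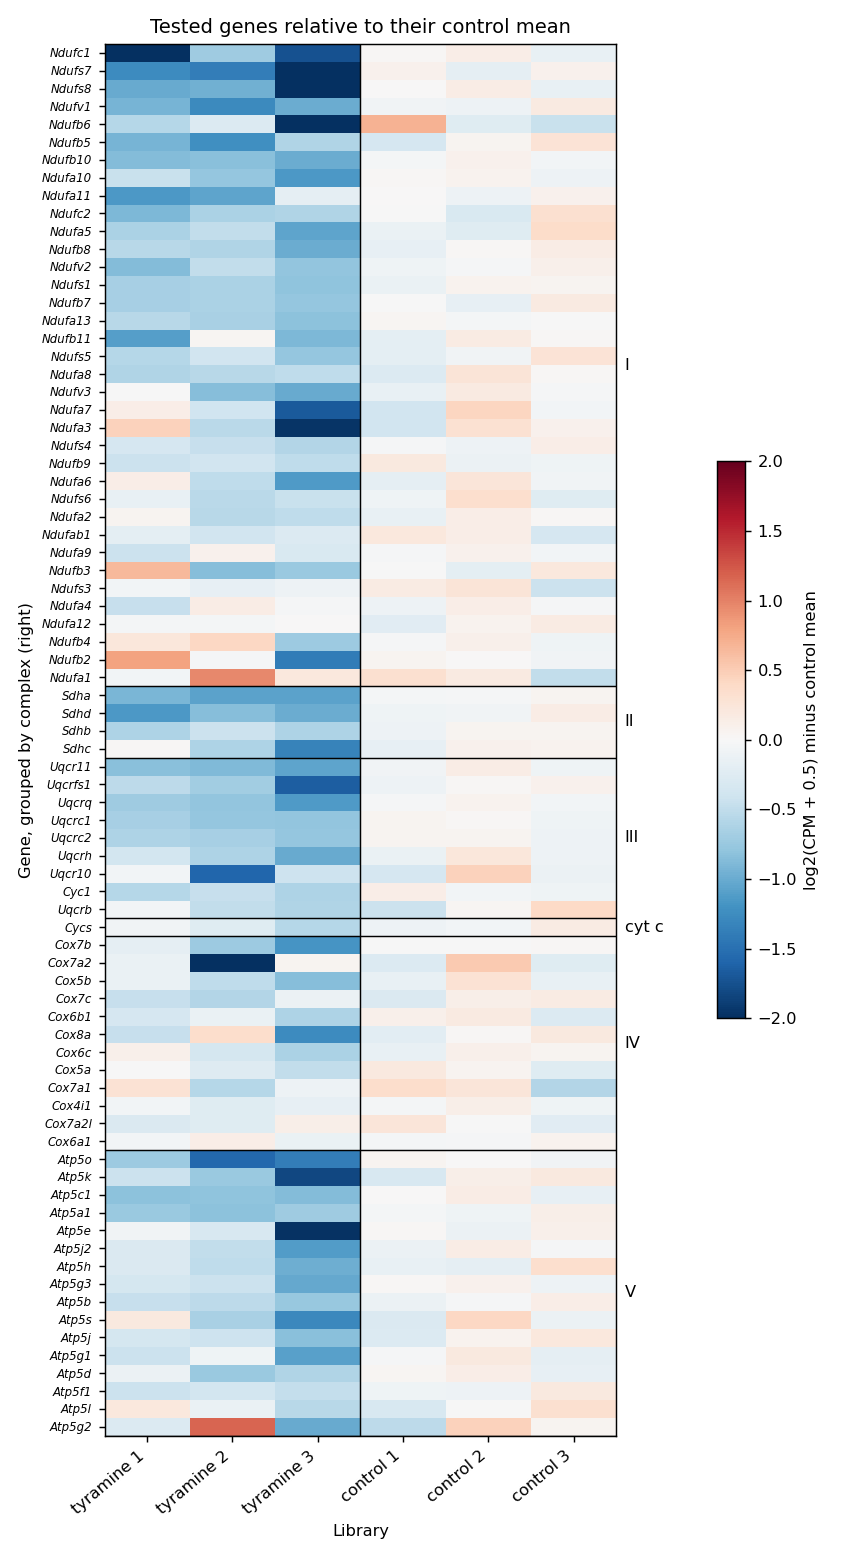
Log2(CPM + 0.5) of 78 tested genes, each minus its control mean, in 3 tyramine libraries (left) and 3 control libraries (right), ordered by complex and fold change, with the colour scale ending at ±2. Blue fields, below the control mean, fill most of complexes I, II, III and V in all 3 tyramine libraries, and complex IV is paler.

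In complex I, 16 of 37 tested genes fell and 0 rose, with a median log2 fold change of −0.59, and 9 fell without control replicate 3. Its core subunits bind NADH, flavin and iron-sulfur clusters and reach to the quinone site. Ndufv1, the flavoprotein that accepts electrons from NADH, had 55.8, 44.2 and 53.5 CPM with tyramine, against 102, 99.3 and 121 CPM in controls. Every tyramine library lay below every control library (log2 fold change −1.07 ± 0.15 SE, edgeR adjusted p = 0.000724). Ndufs1, the largest iron-sulfur subunit, averaged 150 ± 9.34 CPM with tyramine and 244 ± 19.0 CPM in controls (SD, n = 3 each; log2 fold change −0.70, edgeR adjusted p = 0.00112); its exons overlap those of Ino80dos on the other strand. Ndufv2, its neighbour in the NADH arm, averaged 147 ± 20.4 CPM with tyramine and 241 ± 16.5 CPM in controls (edgeR adjusted p = 0.00232).

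Ndufs7, an iron-sulfur core subunit next to the quinone site, fell most among the called members of complex I. It had 22.9, 21 and 11.6 CPM with tyramine, against 58.9, 48.9 and 58.8 CPM in controls, a 3.00-fold lower level with a 95% interval of −2.18 to −0.99 on the log2 scale (edgeR adjusted p = 0.00196). Ndufs8, its partner in the quinone arm, had 11.5, 11.8 and 1.25 CPM with tyramine, against 23.8, 26.0 and 21.1 CPM in controls. The groups did not overlap, but tyramine replicate 3 stood far below the other tyramine libraries, and the gene did not pass (log2 fold change −1.53, edgeR adjusted p = 0.109). Without that library it passed, at −1.02 with an edgeR adjusted p of 0.0169, and it also passed with DESeq2 (adjusted p = 0.0334) and limma-voom (adjusted p = 0.0220). Ndufs3, another core subunit of the quinone arm, had 26.0, 23.9 and 25.1 CPM with tyramine, inside the control range of 19.9 to 32.5 CPM. Its log2 fold change was −0.14, with an interval of −0.69 to 0.41.

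Among the supernumerary subunits of complex I, which surround the core and serve its assembly and stability, 11 of 30 tested genes fell and the median log2 fold change was −0.55. Ndufb10, a subunit of the membrane arm, had 89.2, 91.4 and 82.0 CPM with tyramine, against 159, 172 and 157 CPM in controls, with no overlap (log2 fold change −0.90, edgeR adjusted p = 0.000364). The other supernumerary subunits that fell in each of the 15 alternative analyses were Ndufb7, Ndufa13 and Ndufa10, with log2 fold changes of −0.70, −0.67 and −0.76. Ndufs4, an accessory subunit of the NADH arm, averaged 205 ± 18.4 CPM with tyramine and 284 ± 22.9 CPM in controls (log2 fold change −0.47, edgeR adjusted p = 0.0113), and lost its call without control replicate 3 (−0.40, edgeR adjusted p = 0.0550). The 6 remaining called genes, Ndufa5, Ndufa8, Ndufb5, Ndufb8, Ndufb9 and Ndufc2, each lost the call when 1 library was left out. Ndufa5 lost it without control replicate 1 or 3 or tyramine replicate 1 (edgeR adjusted p of 0.0510 to 0.110), and Ndufb8 without control replicate 2 or 3 (0.0914 and 0.110). Ndufa8 lost it without control replicate 2 or 3 or tyramine replicate 1 or 2 (0.0857 to 0.221), and Ndufb5 without the same libraries (0.0562 to 0.115). Ndufc2 lost it without control replicate 1 or 3 or tyramine replicate 1 or 2 (edgeR adjusted p of 0.0580 to 0.168), and Ndufb9 without any of the 6 libraries (0.0692 to 0.204). Exons of Ndufb8 and Ndufb9 overlap other genes on the same strand (Gm20538 and Gm49356), and the labels do not say how shared reads were counted. Ndufa11, a membrane-arm subunit whose NRF1 letters are shown above, had 19.6, 20.9 and 38.6 CPM with tyramine, against 44.2, 40.9 and 46.9 CPM in controls. Tyramine libraries lay below all controls, but replicate 3 came close to the controls and the gene did not pass (log2 fold change −0.74, edgeR adjusted p = 0.0767). Without that library it passed (−1.12, edgeR adjusted p = 0.00218), as it did with DESeq2 (adjusted p = 0.0476) and limma-voom (0.0290).

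The lowest log2 fold change in complex I was that of Ndufc1, a small membrane-arm subunit with 1.16, 5.44 and 2.40 CPM with tyramine, against 9.31, 10.1 and 8.21 CPM in controls. The groups did not overlap, yet the tyramine libraries were spread widely and the gene did not pass (log2 fold change −1.62, edgeR adjusted p = 0.0811). It passed with DESeq2 (adjusted p = 0.0371), with limma-voom (adjusted p = 0.0357) and without tyramine replicate 2 (log2 fold change −2.37, edgeR adjusted p = 0.0175). Ndufa1, at the other end of the order, had 3.00, 6.57 and 3.69 CPM with tyramine, against 4.05, 3.59 and 2.07 CPM in controls, and the groups overlapped (log2 fold change 0.45, interval −1.02 to 1.92). Ndufa4, first assigned to complex I and now placed in complex IV, had 18.3, 28.1 and 24.9 CPM with tyramine and 23.4, 27.6 and 24.9 CPM in controls. Its log2 fold change of −0.09 turned to 0.07 without tyramine replicate 1. Its paralogue Ndufa4l2, induced by hypoxia in other tissues, was at 0 counts in all 6 libraries, which allows at most 0.0822 to 0.106 CPM per library when 3 counts are taken as the upper limit. As Ndufa4 was not called, moving it to complex IV cannot change the counts of calls by complex. In the medians and sums by complex given here, Ndufa4 is counted in complex I.

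All 4 subunits of complex II lay below 0 and 3 of them fell; the median log2 fold change was −0.78. Sdha, the flavoprotein that oxidizes succinate (chr13:74322254-74350280, minus strand, GENCODE M21 on GRCm38), had 442, 396 and 393 CPM with tyramine, against 811, 819 and 859 CPM in controls. The groups were far apart, and the level was 2.02-fold lower with tyramine (log2 fold change −1.01, interval −1.21 to −0.82, edgeR adjusted p = 3.09e-05). Sdhd, which anchors the enzyme in the membrane and shares the NRF1 letters shown above, had 60.7, 74.6 and 68.0 CPM with tyramine, against 127, 129 and 151 CPM in controls. Its log2 fold change was −1.0 (interval −1.30 to −0.70, edgeR adjusted p = 0.000553), also without overlap. Sdhb, the iron-sulfur subunit, had 62.2, 71.4 and 62.6 CPM with tyramine, against 89.0, 99.8 and 99.7 CPM in controls. It fell by 0.56 on the log2 scale (edgeR adjusted p = 0.0130), and the call was lost without control replicate 2 (−0.53, edgeR adjusted p = 0.0681) or control replicate 3 (−0.53, edgeR adjusted p = 0.0617).

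Sdhc, the other membrane anchor, had 78.2, 49.8 and 29.9 CPM with tyramine, against 68.6, 81.5 and 80.4 CPM in controls. Tyramine replicate 1 lay inside the control range, and the log2 fold change of −0.55 did not pass (edgeR adjusted p = 0.209). Without that library Sdhc passed, at −0.94 with an edgeR adjusted p of 0.0248, so that all 4 subunits were then called; without tyramine replicate 3 it was at −0.26 and did not pass. Since the 4 proteins form the enzyme in equal numbers, their levels were also set side by side per kilobase of exon. Lengths join the exons of all transcripts, 3.17 kb for Sdhc, and the transcripts expressed may be shorter. Sdha had 142 CPM per kb with tyramine and 286 in controls, Sdhd 55.1 and 110, Sdhb 57.3 and 84.2, and Sdhc 16.6 and 24.2. Sdha thus stood above the other subunits of its complex in both groups, and its level relative to Sdhb was lower in every tyramine library than in every control library (ratios of 7.11, 5.55 and 6.28 against 9.11, 8.21 and 8.61).

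**Figure D3:**
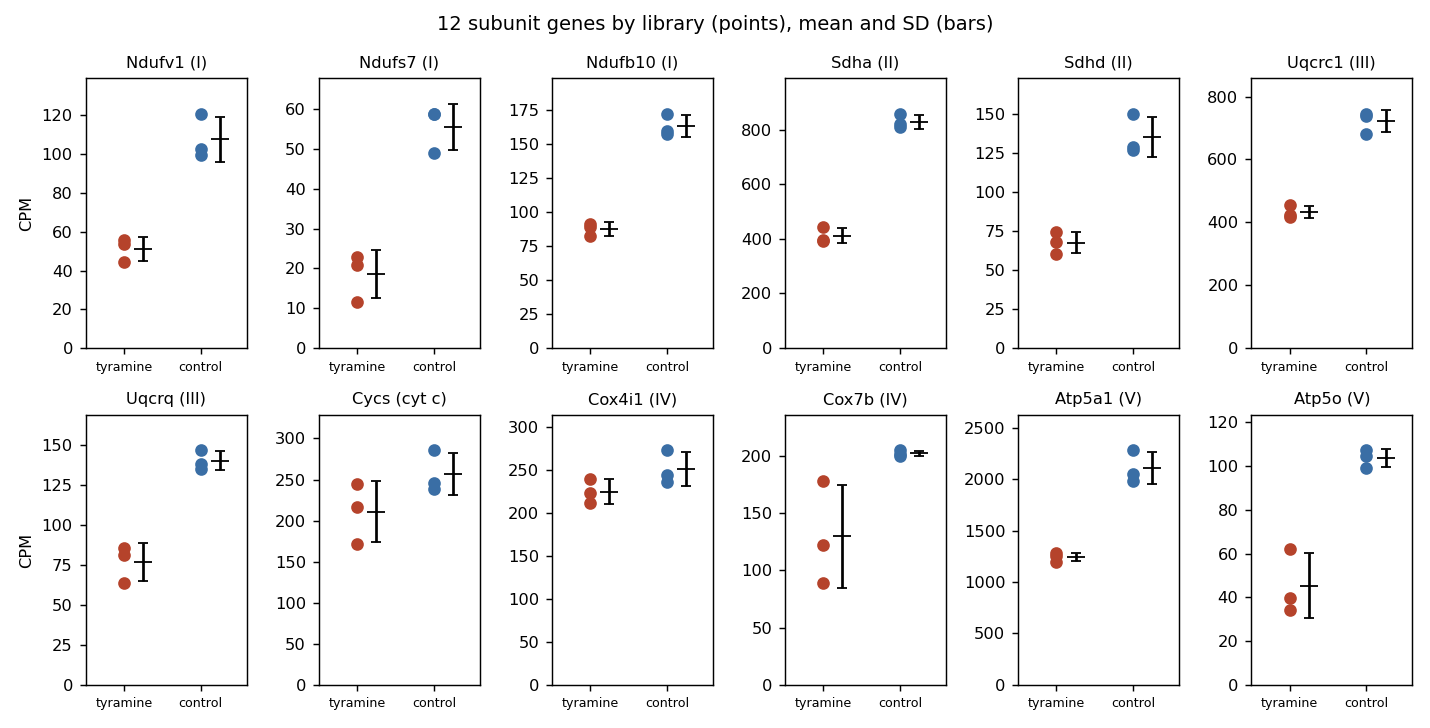
CPM of 12 genes in each tyramine library (left) and control library (right) of each panel, on axes that start at 0, with the group mean as a line and the SD as a bar (n = 3 each). Tyramine points lie below all control points for Ndufv1, Ndufs7, Ndufb10, Sdha, Sdhd, Uqcrc1, Uqcrq, Cox7b, Atp5a1 and Atp5o, and overlap them for Cycs and Cox4i1.

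Complex III was lower across its parts, with 7 of 9 genes called and a median log2 fold change of −0.68. Its 2 core proteins, which are related to the mitochondrial processing peptidase, both fell. Uqcrc1 (chr9:108936633-108949623, plus strand) had 454, 423 and 418 CPM with tyramine, against 746, 737 and 682 CPM in controls, and the groups did not overlap (log2 fold change −0.74, interval −0.93 to −0.55, edgeR adjusted p = 0.000204). Uqcrc2 averaged 105 ± 5.87 CPM with tyramine and 168 ± 10.2 CPM in controls (log2 fold change −0.68, edgeR adjusted p = 0.00172). No tyramine library of either gene reached the control range. Uqcrq, a small subunit beside cytochrome b, had 85.7, 81.4 and 63.5 CPM with tyramine, against 139, 147 and 135 CPM in controls (log2 fold change −0.87, edgeR adjusted p = 0.00160). Uqcr11, the smallest subunit, had 30.8, 29.7 and 26.3 CPM with tyramine, against 52.8, 61.6 and 51.9 CPM in controls (log2 fold change −0.94, edgeR adjusted p = 0.00381). In these 4 genes the call held under each of the 15 alternatives, while the number of complex III genes called was 4 without control replicate 1.

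Both redox carriers of complex III that are encoded in the nucleus also fell. Cyc1, cytochrome c1, had 81.0, 87.0 and 77.6 CPM with tyramine, against 132, 115 and 113 CPM in controls (log2 fold change −0.55, edgeR adjusted p = 0.00924), and missed the threshold without control replicate 1 (−0.49, edgeR adjusted p = 0.0546). Uqcrfs1, the Rieske iron-sulfur protein, had 139, 123 and 63.8 CPM with tyramine, against 187, 204 and 212 CPM in controls (log2 fold change −0.89, edgeR adjusted p = 0.0215). It did not overlap between groups, but lost the call without any 1 of the control libraries, with edgeR adjusted p of 0.0616, 0.0724 and 0.0865 without replicates 1, 2 and 3. Uqcrh, the hinge protein that helps cytochrome c1 bind cytochrome c, fell by 0.66 on the log2 scale (edgeR adjusted p = 0.0337). Its call was lost without any single library but tyramine replicate 1, with log2 fold changes of −0.50 to −0.73 and edgeR adjusted p of 0.0504 (without tyramine replicate 3) to 0.159 (without control replicate 2). Uqcrb overlapped between groups, with 111, 82.0 and 75.7 CPM with tyramine and 85, 118 and 153 CPM in controls (log2 fold change −0.40, edgeR adjusted p = 0.221), and Uqcr10 averaged 5.39 ± 2.75 CPM with tyramine and 8.40 ± 2.70 CPM in controls.

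Cycs, the mobile carrier between complexes III and IV and a trigger of apoptosis once released, had 245, 216 and 171 CPM with tyramine, against 238, 245 and 286 CPM in controls. Tyramine replicate 1 lay within the control range, and Cycs did not pass (log2 fold change −0.28, interval −0.60 to 0.03, edgeR adjusted p = 0.177). Without tyramine replicate 3 its log2 fold change was −0.15. The ratio of Cycs to Cyc1 was 3.02, 2.49 and 2.21 in tyramine libraries and 1.80, 2.12 and 2.53 in control libraries, which overlap.

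In complex IV, cytochrome c oxidase, 1 of 12 tested genes fell and 0 rose, a share of 8.33% beside 13.3% of all tested genes. All 12 fold changes were below 0, with a median of −0.30. Cox7b, a small subunit encoded on the X chromosome, had 178, 122 and 88.5 CPM with tyramine, against 200, 201 and 205 CPM in controls. The groups did not overlap, and the tyramine libraries differed from each other by more than the control libraries did (log2 fold change −0.64, edgeR adjusted p = 0.0485). That call was lost in 7 of the 15 alternatives, among them each analysis that left out a control library (edgeR adjusted p = 0.128, 0.125 and 0.138 without replicates 1, 2 and 3) and those without tyramine replicate 2 (0.126) or 3 (0.0563). Cox4i1, the regulatory subunit found in most tissues and the most abundant nuclear complex IV transcript per kilobase here, had 239, 211 and 223 CPM with tyramine, against 244, 272 and 235 CPM in controls. The groups overlapped at 1 library, and the log2 fold change was −0.16 with an interval of −0.39 to 0.07 (edgeR adjusted p = 0.312).

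The other complex IV subunits with isoforms also did not pass. Cox6a1, the liver-type isoform, had 19.0, 21.7 and 17.8 CPM with tyramine, against 19.2, 19.3 and 20.6 CPM in controls, and its log2 fold change of −0.02 had an interval of −0.55 to 0.52. Cox6b1, the general isoform of the subunit that faces cytochrome c, averaged 67.6 ± 11.3 CPM with tyramine and 86.6 ± 13.6 CPM in controls (log2 fold change −0.36, edgeR adjusted p = 0.174). Cox7a2, the liver-type isoform, averaged 8.48 ± 5.44 CPM with tyramine and 12.4 ± 4.34 CPM in controls, Cox7a2l 27.6 ± 4.37 and 30.4 ± 5.0 CPM, and Cox8a 11 ± 6.18 and 13.8 ± 1.95 CPM. The muscle-type Cox7a1 was detected at 1.30 ± 0.525 CPM with tyramine and 1.49 ± 0.63 CPM in controls. The isoforms known from heart and skeletal muscle, lung or testis were near absent. Cox7b2, Cox8b, Cox6b2 and Cox8c were at 0 counts in all 6 libraries, Cox4i2 had 2 counts in tyramine replicate 3 alone, and Cox6a2 had 0, 0 and 2 counts with tyramine, against 2, 20 and 1 counts in controls. Cox5b averaged 79.7 ± 19.5 CPM with tyramine and 111 ± 20.8 CPM in controls, and Cox6c 93.0 ± 24.2 and 112 ± 10.3 CPM, with log2 fold changes of −0.48 and −0.27. Cox5b passed without tyramine replicate 1 (−0.68, edgeR adjusted p = 0.0385).

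In complex V, the ATP synthase, 7 of 16 tested genes fell and 0 rose, with a median log2 fold change of −0.58. Atp5b, the catalytic beta subunit of the F1 head, where ATP is made, was the most abundant member per kilobase of exon (1106 CPM per kb with tyramine, 1654 in controls). It had 2292, 2199 and 1864 CPM with tyramine, against 2930, 3126 and 3451 CPM in controls, with no overlap (log2 fold change −0.58, edgeR adjusted p = 0.00209). Atp5a1, the alpha subunit, had 1255, 1196 and 1280 CPM with tyramine, against 2055, 1985 and 2283 CPM in controls (log2 fold change −0.76, edgeR adjusted p = 0.000132); its exons overlap those of Haus1 on the other strand. The ratio of Atp5a1 to Atp5b was 0.548, 0.544 and 0.687 in tyramine libraries and 0.701, 0.635 and 0.662 in control libraries, so the ratio overlapped. Atp5c1, the gamma shaft that turns inside the head, had 173, 176 and 168 CPM with tyramine, against 310, 341 and 273 CPM in controls (log2 fold change −0.84, edgeR adjusted p = 0.000423). Atp5d and Atp5e, the delta and epsilon subunits at the foot of the shaft, had log2 fold changes of −0.47 and −0.63 and did not pass; Atp5d passed without tyramine replicate 1 (−0.68, edgeR adjusted p = 0.0361).

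All 4 genes of the peripheral stalk, which holds the head still against the turning ring, fell. Atp5o, the oligomycin sensitivity protein at the top of the stalk, had 62.2, 34.4 and 39.5 CPM with tyramine, against 107, 104 and 99.1 CPM in controls, a 2.28-fold lower level (edgeR adjusted p = 0.00277). It overlaps exons of Donson on the same strand, so reads of that gene may be among its counts. Atp5f1, subunit b, averaged 590 ± 22.8 CPM with tyramine and 796 ± 97.5 CPM in controls (log2 fold change −0.43, edgeR adjusted p = 0.0113). Atp5h, subunit d, averaged 329 ± 77.4 CPM with tyramine and 493 ± 103 CPM in controls (log2 fold change −0.58, edgeR adjusted p = 0.0446). Its call was lost in 8 of the 15 alternatives, including those without control replicate 1, 2 or 3 (edgeR adjusted p = 0.0759, 0.0656 and 0.188) and without tyramine replicate 2 or 3 (0.0912 and 0.0718). Atp5j, coupling factor 6, which lies head to head with Gabpa and overlaps its exons on the other strand, averaged 205 ± 35.2 CPM with tyramine and 297 ± 49.6 CPM in controls (log2 fold change −0.53, edgeR adjusted p = 0.0328). Its call was lost without control replicate 2 or 3 (edgeR adjusted p = 0.116 and 0.143) and without tyramine replicate 2 or 3 (0.0557 and 0.0551).

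None of the 3 genes for the identical c subunit of the membrane ring passed. Atp5g3 had 32.2, 30.5 and 19.9 CPM with tyramine, against 41.7, 43.6 and 38.5 CPM in controls, without overlap (log2 fold change −0.58, edgeR adjusted p = 0.0910). Atp5g1 averaged 6.09 ± 2.18 CPM with tyramine and 8.73 ± 1.21 CPM in controls, and Atp5g2 1.18 ± 1.31 and 0.976 ± 0.48 CPM. Per kilobase of exon, Atp5g3 stood at 38.1 CPM with tyramine and 57.0 CPM in controls. Atp5g1 stood at 1.24 and 1.78 CPM per kb, and Atp5g2 at 1.62 and 1.34. The order of the lower pair depends on exon lengths joined over transcripts, 4.91 kb for Atp5g1 and 0.731 kb for Atp5g2. In CPM, the mean of Atp5g1 lay above that of Atp5g2 in both groups. The membrane subunits e, f and g also did not pass, although Atp5j2 (subunit f) came near, at 76.8 ± 21.5 CPM with tyramine and 116 ± 11.5 CPM in controls (log2 fold change −0.59, edgeR adjusted p = 0.0548). It passed in 7 of the 15 alternatives, among them without tyramine replicate 1 (−0.77, edgeR adjusted p = 0.0302).

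The summed levels of the complexes give the same data at another scale. Sums are weighted toward abundant genes, such as Sdha in complex II and Atp5b and Atp5a1 in complex V. Complex II summed to 596.5 ± 44.8 CPM with tyramine and 1138 ± 47.5 CPM in controls (SD, n = 3 each). Complex III summed to 976 ± 106 and 1610 ± 40.6 CPM, complex I to 2044 ± 189 and 3264 ± 84.5 CPM, and complex V to 4915 ± 395 and 7566 ± 613 CPM. For these 4 complexes every tyramine library was below every control library. Complex IV summed to 794, 664 and 591 CPM with tyramine, against 839, 936 and 824 CPM in controls, so its groups were also apart, but by a smaller step. The ratio of tyramine to control means was 0.524 for complex II, 0.606 for III, 0.626 for I, 0.650 for V, 0.788 for IV and 0.822 for Cycs.

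**Figure D4:**
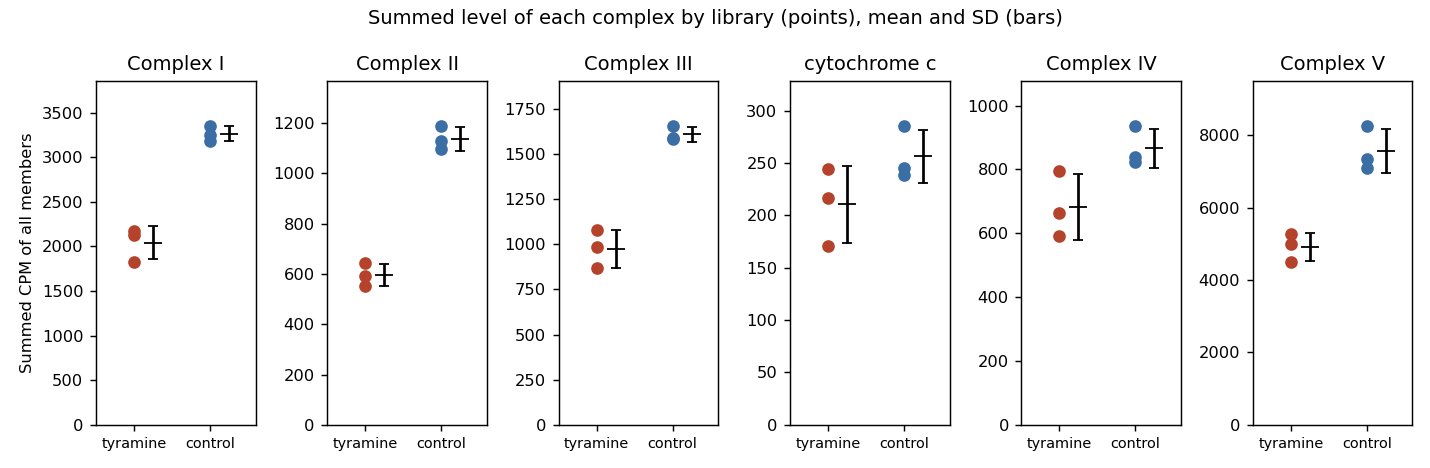
Summed CPM of the members of each complex in each tyramine library (left) and control library (right), on axes that start at 0, with the mean as a line and the SD as a bar (n = 3 each). Complex II sums to 596.5 CPM with tyramine, against 1138 CPM in controls, and complex IV to 683 CPM, against 867 CPM.

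Ratios taken within a library set the complexes against each other without a scaling factor, and are given as a description with no test. The summed level of complex IV over that of complex III was 0.737, 0.674 and 0.682 in tyramine libraries, against 0.527, 0.565 and 0.521 in control libraries. Complex IV over complex II was 1.23, 1.12 and 1.07, against 0.766, 0.829 and 0.693. Complex IV over complex I was 0.365, 0.312 and 0.323, against 0.264, 0.288 and 0.246. Complex IV over complex V was 0.151, 0.133 and 0.132, against 0.118, 0.127 and 0.0997, so the groups were apart by a small step. Complex II over complex III ran the other way, at 0.597, 0.601 and 0.639 with tyramine, against 0.688, 0.682 and 0.752 in controls. Sdha averaged 411 CPM with tyramine and 830 CPM in controls, most of the complex II sums of 596.5 and 1138 CPM. Ratios with complex II therefore largely follow that gene, and they were not computed without it. Complexes I and III relative to V overlapped between groups. Within complex I, the core subunits were lower relative to the supernumerary ones in every tyramine library. The ratios were 0.422, 0.460 and 0.473, against 0.566, 0.550 and 0.568 in controls, with Ndufa4 and Ndufa4l2 left out of the supernumerary sum.

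Calls were more frequent among abundant members. Of 27 members with a mean of at least 100 CPM, 22 fell, beside 21.1% of all tested genes at that level. Of 30 members between 20 and 100 CPM, 12 fell, beside 16.6% of all tested genes, and of 22 tested members under 20 CPM 0 fell, beside 8.63%. The median log2 fold change in these classes was −0.68, −0.56 and −0.51, and the median coefficient of variation among tyramine libraries was 9.45%, 20.4% and 56.3%. Complex IV had 6 of its 12 tested genes in the lowest class. At 100 CPM or more, 1 of its 3 genes fell (Cox7b, not Cox4i1 or Cox6c), while 8 of 9 fell in complex I, 5 of 6 in complex III, and 2 of 2 and 6 of 6 in complexes II and V. Members with exons longer than the members' median of 1.05 kb fell in 23 of 39 cases, and those up to that length in 11 of 40. Over all tested genes with a known exon length, 13.6% of those longer than 1.05 kb fell and 9.17% of those up to it. Libraries were made from products of 200 to 500 bp, and the part of transcript length in the calls was not tested.

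**Figure D5:**
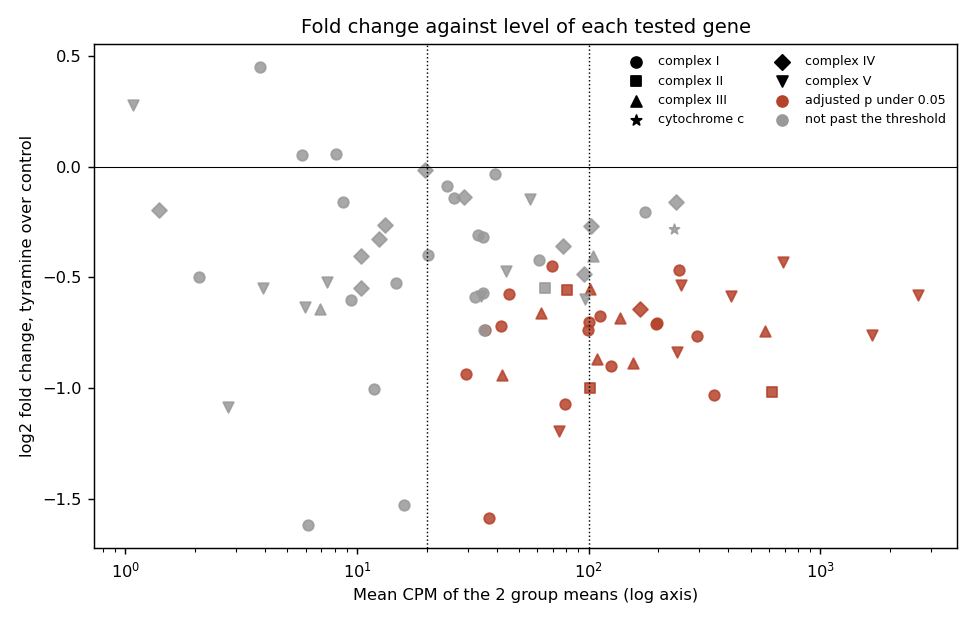
Log2 fold change, tyramine over control, of each tested gene against its mean CPM on a log axis, with the complex given by the symbol and called genes in red. The 34 called genes all have a mean of at least 20 CPM, and the 22 tested genes under 20 CPM are spread from −1.62 to 0.45 without a call.

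Members varied more in the tyramine group, with a median coefficient of variation of 21.1% among tyramine libraries and 10.8% among control libraries; over all tested genes these were 28.4% and 15.9%. Tyramine replicate 3 held the lowest tyramine value in 51 of the 79 members (64.6%), beside 36.2% of all tested genes. Its summed member level was 8495 CPM, against 10197 and 9585 CPM in the other tyramine libraries and 14041 to 15492 CPM in controls. Without that library, 31 members fell and 0 rose.

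Genes that build and serve the chain were described from lists, read beside 13.3% of all tested genes lower. For assembly, 1 of 16 factors of complex I fell and 0 rose (median log2 fold change −0.31), 0 of 4 for complex II passed (−0.10), 0 of 6 for complex III passed (−0.21; at an unadjusted p under 0.05 edgeR put 0 of these 10 lower and 1, of complex II, higher, and DESeq2 called 0) and 5 of 25 for complex IV fell (−0.38). Lists given here and below with 0 higher also had 0 higher at an unadjusted p under 0.05 in edgeR's test, apart from 1 complex I factor; DESeq2 called 1 complex I factor higher. Ndufaf4, a complex I assembly factor, had 28.7, 27.8 and 15.8 CPM with tyramine, against 60.3, 57.1 and 82.3 CPM in controls (log2 fold change −1.46, edgeR adjusted p = 0.00264). Lrpprc, which stabilizes mitochondrial mRNAs and whose loss lowers complex IV, had 112, 87.6 and 109 CPM with tyramine, against 184, 187 and 201 CPM in controls (log2 fold change −0.89, edgeR adjusted p = 0.000718). Neither of these overlapped between groups. Every tyramine library lay below every control library in 5 of 16 complex I factors and 9 of 25 complex IV factors, beside 23.6% of all tested genes. Cox20, a chaperone of a mitochondrially encoded complex IV subunit, fell by 1.40 on the log2 scale (edgeR adjusted p = 0.00407). Cox10, which makes heme A, fell by 0.93 (edgeR adjusted p = 0.0106) and lost the call without control replicate 2 (−0.83, edgeR adjusted p = 0.0743). Without control replicates 2 or 3, the number of complex IV factors that fell was 2 and 3, and without tyramine replicate 1 it was 2 for complex I factors, with 1 higher. Atpif1, the inhibitor of the ATP synthase, was the 1 gene of 4 on its list to fall, with 148, 99.3 and 94.4 CPM with tyramine, against 174, 223 and 202 CPM in controls (log2 fold change −0.81, edgeR adjusted p = 0.00892).

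Of 19 tested regulators of mitochondrial gene expression, 2 fell and 1 rose, with a median log2 fold change of 0.21. Ppargc1b, a coactivator of respiratory genes, had 8.08, 7.32 and 6.57 CPM with tyramine, against 19.4, 21.1 and 16.4 CPM in controls (log2 fold change −1.37, edgeR adjusted p = 0.00876), and missed the threshold without control replicate 2 (−1.29, edgeR adjusted p = 0.0604). Esrra, the nuclear receptor that it coactivates, had 39.8, 42.3 and 26.3 CPM with tyramine, against 71.5, 71.1 and 62.4 CPM in controls (log2 fold change −0.92, edgeR adjusted p = 0.00885). Sirt1, a deacetylase of PGC-1 alpha, rose, with 29.4, 30.2 and 58.7 CPM with tyramine, against 7.27, 11.2 and 7.29 CPM in controls (log2 fold change 2.20, edgeR adjusted p = 0.00133). None of these 3 genes, the called ones of the list, overlapped between groups. Of the 19 tested regulators, 5 lay lower and 5 higher without overlap, beside 23.6% and 20.9% of all tested genes. Ppargc1a, which encodes PGC-1 alpha, had 2.01, 4.50 and 0.313 CPM with tyramine, against 8.92, 8.77 and 11.8 CPM in controls. The groups did not overlap, but Ppargc1a did not pass (log2 fold change −2.11, edgeR adjusted p = 0.0796); it passed with DESeq2 (adjusted p = 0.0215), with limma-voom (0.0265), without tyramine replicate 2 (−3.08, edgeR adjusted p = 0.0265) and without tyramine replicate 3 (−1.59, 0.0407). The factors whose motifs are shown above did not pass either, with log2 fold changes of 0.36 for Nrf1 (edgeR adjusted p = 0.215) and 0.29 for Gabpa (edgeR adjusted p = 0.314). Tfam, which packages and transcribes mitochondrial DNA, had 53.9, 61.5 and 55.3 CPM with tyramine, against 80.6, 63.7 and 89.1 CPM in controls (log2 fold change −0.45, edgeR adjusted p = 0.0715). It passed when libraries were scaled by their totals alone (−0.53, edgeR adjusted p = 0.0362) and with a filter at a mean of 20 CPM (−0.51, edgeR adjusted p = 0.0296). DESeq2 called 4 regulators lower and 3 higher, and 4 were lower without tyramine replicate 2.

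Around coenzyme Q, the electron acceptor of complexes I and II, 3 of 13 genes of its synthesis fell and 0 rose (median log2 fold change −0.66). Pdss1, which with Pdss2 makes the side chain, had 21.6, 15.2 and 16.1 CPM with tyramine, against 50.2, 38.2 and 51.6 CPM in controls (log2 fold change −1.41, edgeR adjusted p = 0.00173). Coq9, a lipid-binding protein of the pathway, averaged 32.5 ± 1.77 CPM with tyramine and 60.5 ± 7.71 CPM in controls (edgeR adjusted p = 0.00426). Pdss2 fell by 1.06 on the log2 scale (edgeR adjusted p = 0.0137), but lost the call without control replicate 1 (edgeR adjusted p = 0.0768) or 3 (0.0658). The number of synthesis genes that fell was 5 without tyramine replicate 3. Of 8 other dehydrogenases that feed coenzyme Q, 4 fell and 2 rose. Chdh, the first enzyme of choline oxidation, had 63.2, 80.7 and 58.4 CPM with tyramine, against 157, 168 and 184 CPM in controls (log2 fold change −1.33, edgeR adjusted p = 0.000161). Etfdh, which passes electrons of fatty acid oxidation to coenzyme Q, had 56.2, 73.0 and 60.2 CPM with tyramine, against 145, 136 and 150 CPM in controls (log2 fold change −1.18, edgeR adjusted p = 0.000206). Gpd2, the glycerol-3-phosphate dehydrogenase of the electron shuttle from the cytosol, moved the other way, with 699, 629 and 582 CPM with tyramine, against 380, 365 and 343 CPM in controls (log2 fold change 0.81, edgeR adjusted p = 0.000259). No gene of these 3, which have the smallest p of the list, overlapped between groups. Of the 8 dehydrogenases, 4 lay lower and 2 higher without overlap, beside 23.6% and 20.9% of all tested genes. The number of these dehydrogenases that rose was 1 in each analysis that left out a library other than tyramine replicate 3.

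A list of carriers and pores for adenine nucleotides and phosphate also held Ucp2 and the kinase Ckmt1. Of its 9 tested genes, 6 fell and 0 rose (median log2 fold change −0.71). Ucp2, an inner membrane carrier of the uncoupling protein family, had 97.8, 78.6 and 68.7 CPM with tyramine, against 432, 383 and 379 CPM in controls (log2 fold change −2.28, edgeR adjusted p = 4.16e-06). Ckmt1, the mitochondrial creatine kinase, had 359, 317 and 218 CPM with tyramine, against 1026, 953 and 982 CPM in controls (log2 fold change −1.73, edgeR adjusted p = 5.1e-05). Vdac2, a pore of the outer membrane, averaged 259 ± 23.1 CPM with tyramine and 423 ± 19.3 CPM in controls (log2 fold change −0.71, edgeR adjusted p = 0.000700). Among import, cristae and chaperone genes, 5 of 21 fell and 0 rose (median −0.37), and the number that fell was 3 in each analysis that left out a control library. Phb2, a prohibitin, averaged 72.7 ± 3.17 CPM with tyramine and 125 ± 9.86 CPM in controls, Chchd3, of the cristae junction complex, 149 ± 29.3 and 278 ± 16.4 CPM, and Hspd1, the matrix chaperonin, 693 ± 77.3 and 1058 ± 30.1 CPM. Their log2 fold changes were −0.79, −0.90 and −0.61, with edgeR adjusted p of 0.00130, 0.00148 and 0.00148.

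In the tricarboxylic acid cycle and its entry enzyme, without succinate dehydrogenase, 11 of 16 genes fell and 0 rose, with a median log2 fold change of −0.55. Ogdh, of the oxoglutarate dehydrogenase complex, had 275, 296 and 230 CPM with tyramine, against 520, 483 and 473 CPM in controls (log2 fold change −0.88, edgeR adjusted p = 0.000351). Mdh2, malate dehydrogenase, had 753, 735 and 691 CPM with tyramine, against 1129, 1052 and 1055 CPM in controls (log2 fold change −0.57, edgeR adjusted p = 0.000716). Pdha1, of the pyruvate dehydrogenase complex, averaged 283 ± 29.8 CPM with tyramine and 449 ± 16.7 CPM in controls (log2 fold change −0.67, edgeR adjusted p = 0.00115). In none of these 3 genes, which have the smallest p of the list, did the groups overlap. Every tyramine library lay below every control library in 13 of the 16 genes, beside 23.6% of all tested genes.

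The promoters were searched on both strands for 4 sequences, and the shares below are descriptions without a test. Shares are of genes with a promoter, and a gene counts where any of its promoters held a match. The NRF1 motif (GCGCA, any base, then GCGC) was found for 17 of the 68 members (25%), for 11.8% of tested genes and for 5.19% of all genes with a RefSeq promoter. Among members it was in 8 of 26 that fell (30.8%) and 9 of 39 that were tested and did not pass (23.1%). The ETS motif, CCGGAAG, was in 16 of 68 members (23.5%), 21% of tested genes and 9.93% of all genes with a promoter. Among members it was in 7 of 26 that fell (26.9%) and 9 of 39 that did not pass (23.1%). AAGATGGCG, which YY1 binds, was in 7 of 68 members (10.3%), 3.76% of tested genes and 1.64% of all genes with a promoter. TCAAGGTCA, the element of ESRRA, was in 2 of 68 members (2.94%), 0.295% of tested genes and 0.466% of all genes with a promoter. Matches of different motifs overlapped in 0 member promoters. The letters GCGCATGCGC stand before Cox6a1, whose level overlapped between groups, and GCGCAGGCGC before Sdha, which was 2.02-fold lower with tyramine. These genes also differ in level. Cox6a1 averaged 19.5 CPM with tyramine and 19.7 CPM in controls, and Sdha 411 and 830 CPM. The part of the motifs in the calls was not tested.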

How the data were processed

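RNA of 6 organoid libraries was sequenced, 3 of the tyramine group and 3 controls; per the labels' protocols a stranded mRNA kit with molecular identifiers was used. The authors deposited raw counts per gene symbol. Per the submitters' processing notes, STAR 2.5.3a and mm10 were used; how genes were counted, and whether per read or per identifier, is not given in the sources used. Values of 1 to 8 counts were even in 72.6 to 78.7% of cases, and counts may not be independent molecules, and floors of 3 counts cover counting error only. Column titles give each library's group.

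From the counts, filterByExpr (minimum count 10, minimum total 15) left 12139 genes, which were scaled by TMM (factors 0.961 to 1.04) and tested with edgeR 4.0.16 (R 4.3.3; robust quasi-likelihood F-test, group as the only term, Benjamini-Hochberg adjustment, threshold 0.05), after a run on simulated data. CPM use TMM-scaled library sizes. Intervals are at 95%. DESeq2 1.42.0, limma-voom (limma 3.58.1), other scalings and filters, a replicate block and leaving out each library were alternatives. Gene positions, exon lengths and overlaps are those of GENCODE M21, and promoters those of RefSeq on GRCm38.p6. Exon lengths join the exons of all transcripts of a gene in the basic set, so the transcripts expressed may be shorter.

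The members and lists were chosen with earlier results of these data known. Named by rule were, per complex, up to 4 called genes of smallest p, the highest and lowest fold change, all Sdh genes, Cycs and isoform groups, 6 regulators and up to 3 called genes per list; further subunits were named after their values were seen, to complete structural modules. A member named by this rule and a marker gene are not reported here. Lists are described by counts and medians, with no test.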

Additional observations from a re-analysis of the deposited data

How the results depend on the processing

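No member was called higher under any of the alternatives run, and the number called lower was 31 to 39 over other scalings, filters, tools and the estimation without robust weights. Of the 79 tested members, 10 changed sign under at least 1 alternative, none of them called. Complex IV had 0 calls with upper-quartile factors or without robust estimation and 2 with a filter at 20 CPM, where the median of complex I was −0.73. Leaving out 1 library gave 21 to 35 members lower, with 9 to 17 in complex I, 4 to 7 in complex III and 0 to 2 in complex IV, medians of −0.71 to −0.49 for complex I −0.93 to −0.73 for complex II and −0.40 to −0.15 for Cycs, and 1035 to 1797 of all genes lower and 934 to 1510 higher. Coenzyme Q synthesis had 5 genes lower with library totals, a filter at 20 CPM and DESeq2, 6 with limma-voom, and 2 to 5 with a library left out. Import and cristae genes had 8 lower with library totals and 3 to 6 with a library left out. With DESeq2, 4 regulators were lower and 3 higher and 1 complex I assembly factor was higher; limma-voom put 2 regulators higher. Leaving out a library gave 1 to 4 regulators lower and 1 to 2 higher, 2 to 6 complex IV assembly factors lower, 1 to 2 of complex I lower and 0 to 1 higher, 0 to 1 of complex II higher, and 1 to 2 dehydrogenases higher. Fewer samples entered the fits that left out a library; otherwise the cause was not tested.

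The signs that turned were as follows. Ndufb2 was at −0.029 with library totals, −0.25 with limma-voom, −0.23 with the replicate block and −0.60 to 0.47 with a library left out. Ndufb4 was at −0.032, −0.036, −0.037 and −0.19 to 0.35 in the same order. Atp5g2 was at −0.26 with limma-voom, −0.21 with the block and −1.14 to 0.77 with a library left out. Left-out ranges were −0.095 to 0.046 for Cox6a1, −0.23 to 0.072 for Ndufa4, −0.52 to 0.070 for Cox7a1, −0.87 to 0.11 for Ndufb3, −0.35 to 0.029 for Atp5l, −1.49 to 0.017 for Ndufa3 and −0.14 to 0.046 for Ndufa12. Library totals moved the median of all genes by under 0.1 on the log2 scale.

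With the replicate number as a block, 28 members were called lower, 11 of them in complex I. Same-numbered libraries did not deviate together (correlations of −0.019, −0.010 and 0.011). With so few libraries this cannot tell whether same-numbered libraries share an animal or a day, which the labels do not state. With 3 libraries a group, members under 20 CPM, with a median coefficient of variation of 56.3% in the tyramine group, gave 0 calls in edgeR's test; Ndufc1 and Ndufs8 among them passed with DESeq2 and limma-voom.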
